A study of Saccharomyces cerevisiae with 4 samples.

Results

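The 6 genes described here encode the α- and β-tubulins of budding yeast and cofactors of their folding and pairing. They are the α-tubulin genes TUB1 and TUB3, the β-tubulin gene TUB2, and the folding cofactor genes CIN1, PAC2 and RBL2. They were taken by symbol from the deposited tables, in which each occurs once and each has a value in every library, and they are 6 of 130 distinct features with values. The tables hold 16 GO terms on tubulin, spindle and mitosis chosen by the authors. RBL2 stands in the term for tubulin complex assembly chaperones and the other members stand in the tubulin associated term.

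Poly(A)-selected RNA of 4 Saccharomyces cerevisiae cultures was sequenced, with 1 library per genotype. The groups were wild type (WT, strain BJ2664), mtr3-1 (an mtr3 mutation, strain T208), mtr4-1 (an mtr4 mutation, strain T188) and dis3mtr (a dis3 mutation also named rrp44-1 or mtr17-1, strain T186). All of them, WT included, were grown in YPD at 30 °C to an OD600 of 0.4 and then kept at 37 °C for 2 h, so no culture held at the lower temperature was analysed here. MTR3 encodes a ring subunit of the RNA exosome, which trims and degrades RNA from the 3′ end, DIS3 encodes its catalytic subunit, and MTR4 encodes a helicase that feeds RNA to the nuclear exosome. The series title points to microtubule defects in the DIS3 mutant, and the tubulin genes bear on that question directly. The mutations sit in separate strains, and a mutation's part in a value and its strain's cannot be told apart. In RNA of a whole culture, a different share of cells at a given cell cycle stage and a different amount of RNA per cell cannot be told apart either.

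Microtubules are built from dimers of α- and β-tubulin. Newly made tubulin is passed by the prefoldin complex to the cytosolic chaperonin CCT, and the folded monomers are then taken over by dedicated cofactors. Pac2 (cofactor E) binds α-tubulin, and Rbl2 (cofactor A) and Cin1 (cofactor D) bind β-tubulin. Cofactors D and E take part in joining the monomers into a dimer. Yeast has a major α-tubulin gene, TUB1, a minor one, TUB3, and TUB2 as its only β-tubulin gene. Free β-tubulin is toxic to yeast cells, and excess Rbl2 protects against it.

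TUB1 and TUB3 are paralogs, so the stretches below, read from the R64 assembly of RefSeq by its own annotation, show how far short reads could tell them apart. Over their coding sequences 1087 of 1338 paired bases (81.2%) are identical, against 58.6% for TUB1 and TUB2. The longest stretch in common covers coding bases 1222 to 1253 of both genes (32 bases, chromosome XIII, minus strand).
TUB1 and TUB3, in common: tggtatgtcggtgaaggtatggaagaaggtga
The window of 60 bases in which they are least alike, coding bases 634 to 693, differs at 19 positions, shown in capitals.
TUB1: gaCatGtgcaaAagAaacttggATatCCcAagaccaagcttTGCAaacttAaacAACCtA
TUB3: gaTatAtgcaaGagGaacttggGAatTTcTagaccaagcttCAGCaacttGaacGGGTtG
The ends of the coding sequences, which encode the acidic C-terminal tails, differ at 6 paired positions, and TUB1 carries 6 bases more. Capitals mark bases that differ or have no partner.
TUB1: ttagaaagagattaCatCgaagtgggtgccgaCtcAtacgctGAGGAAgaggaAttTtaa
TUB3: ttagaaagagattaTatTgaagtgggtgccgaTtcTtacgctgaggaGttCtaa

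Reads were 36 cycles long and each library carried a barcode of 3 bases, so an insert read of 33 or 36 bases was considered. No 33-base window of any of the 6 coding sequences occurs elsewhere in R64 without a mismatch, and no 36-base window does. With up to 2 mismatches, 77 of 1294 aligned 33-base windows (5.95%) are alike in TUB1 and TUB3. The sources used here do not say how many mismatches the authors allowed. Reads from outside the coding sequence could also enter the values. TUB1 and TUB3 each contain an intron, of 116 and 298 bp in R64, and 120 bp of TUB3 overlap an annotated antisense RNA, YNCM0001W. The sources used here state neither the treatment of intron reads nor the use of strand, so for TUB3 sense and antisense reads may not be separated.

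**Figure D1:**
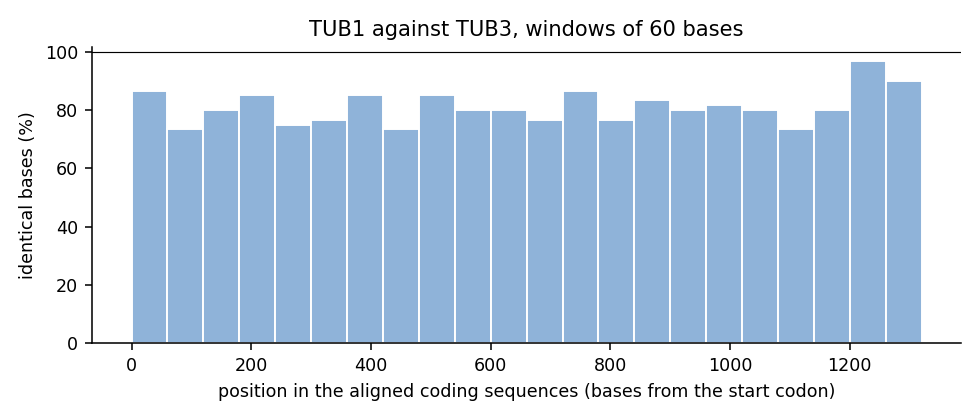
Share of identical bases between the coding sequences of TUB1 and TUB3 in successive windows of 60 aligned bases, from the start codon on the left (windows with a gap are not drawn). Identity lies between 73.3% and 96.7%, and none of the 22 windows is identical in both genes.

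The positions that the tables give for the tubulin genes are wider than the genes. TUB1 is listed on chromosome 13 from 97 to 102 kb, TUB2 on chromosome 6 from 55 to 60 kb and TUB3 on chromosome 13 from 21 to 26 kb (sacCer2). Each interval spans 5 kb, whereas the genes span 1.46, 1.374 and 1.636 kb in R64. In R64 the neighbours of TUB2 are YPT1 and RPO41, those of TUB1 are ALO1 and YML083C, and those of TUB3 are PGA3 and PHO84. In all, 16 features of certain identity were listed at 5 kb although the gene is more than 1 kb shorter. CIN1 (chromosome 15, 989 to 992 kb), PAC2 (chromosome 5, 164 to 166 kb) and RBL2 (chromosome 15, 820 kb) were listed at about their own length. Among the 16, BFA1 is listed from 533 to 538 kb in some tables and from 534 to 535 kb in another, with the same WT value of 4.13 units. Intervals were compared only between entries with the same values in every library, so a value that changed with its interval could not appear. The BFA1 entries therefore do not show whether a value depends on the listed interval. For the tubulin genes, which occur once each, whether reads of neighbouring genes entered the value was not tested.

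Values below are in the authors' normalized units, on a scale that the sources used here do not define, and in percent of the WT value. A transcript is called high from 1.15 times the WT value and low up to 0.85 times, the limits that the file headers set for increased and decreased transcripts, and the words are used as a description. With 1 library per genotype there is no spread between replicates and no test, and the depth behind a value is unknown. All percents share the same WT library. The library medians over the 130 features were at 99.2% of WT in mtr3-1, 81.5% in mtr4-1 and 112% in dis3mtr, which are log2 shifts of -0.01, -0.30 and 0.17. These medians cover only features of the authors' chosen terms, not all genes of a library. A change shared by those genes and a shift of the whole library cannot be told apart in them. Each percent is also given relative to its library's median over these features where the call depends on it.

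All 3 tubulin genes had their highest value in the dis3mtr library. TUB2, the β-tubulin gene, was at 274 units in WT, 289 in mtr3-1, 292 in mtr4-1 and 417 in dis3mtr. The first 3 of these lie close together and dis3mtr stands above them, at 152% of WT (log2 ratio 0.61). TUB1, the major α-tubulin gene, was at 129.6 units in WT, 136 in mtr3-1, 126 in mtr4-1 and 179 in dis3mtr. Again dis3mtr was the only library set apart, at 138% of WT (log2 ratio 0.47). TUB3, the minor α-tubulin gene, was at 139.6 units in WT, 137 in mtr3-1, 98.3 in mtr4-1 and 171 in dis3mtr. Here the libraries fell at 3 heights, with mtr4-1 lowest at 70.4% of WT, WT and mtr3-1 between, and dis3mtr highest at 122%. Relative to the library median TUB2 and TUB1 were still high in dis3mtr, at 135% and 123%, whereas TUB3 was at 109%.

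In mtr4-1 the picture for the tubulins turns on the scaling. As deposited, TUB2 and TUB1 were at 106% and 97.3% of WT, inside the thresholds. Relative to the low median of that library they were at 131% and 119%, and TUB3 moved from 70.4% to 86.5%, inside the thresholds. In mtr3-1, where the median was close to WT, the 3 tubulin genes lay between 98.3% and 105.3% and none passed a threshold under either scaling.

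**Figure D2:**
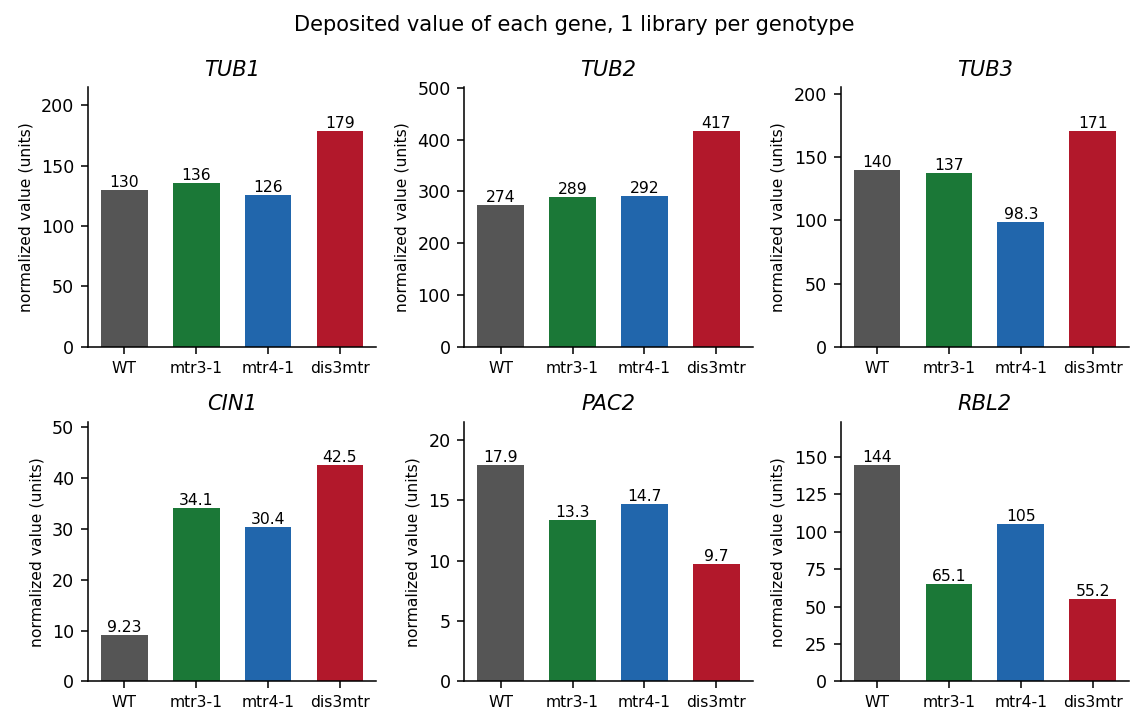
Deposited normalized value of each gene in the 4 libraries, 1 library per bar and no error bars because there are no replicates; each panel has its own linear axis from 0. The dis3mtr bar is highest for TUB1, TUB2, TUB3 and CIN1 and lowest for PAC2 and RBL2.

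The cofactor genes did not follow the tubulins as a group. CIN1, whose product binds β-tubulin and takes part in forming the dimer, was at 9.23 units in WT, 34.1 in mtr3-1, 30.4 in mtr4-1 and 42.5 in dis3mtr. Every mutant library stood at least 3-fold above WT, at 369%, 329% and 460.6% in the same order, while the highest mutant was 1.40 times the lowest. The contrast therefore rests on a WT value that is the twelfth lowest of the 130, and with 1 WT library its error is unknown. CIN1 ranked 3 from the top in mtr3-1 and in mtr4-1 and 4 in dis3mtr. Adding 1 unit to each value left it at 343%, 307% and 425%.

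RBL2, whose product binds free β-tubulin, was at 144 units in WT, 65.1 in mtr3-1, 105.4 in mtr4-1 and 55.2 in dis3mtr. WT was highest, mtr4-1 lay between, and mtr3-1 and dis3mtr were lowest, at 45.0% and 38.2% of WT. RBL2 was the seventh lowest feature in mtr3-1 and the sixth lowest in dis3mtr. In mtr4-1 it was at 72.9%, or 89.5% relative to the library median, inside the thresholds.

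PAC2, whose product binds α-tubulin, was at 17.9 units in WT, 13.3 in mtr3-1, 14.7 in mtr4-1 and 9.70 in dis3mtr. WT was again highest and dis3mtr lowest, at 54.2% of WT. The values in mtr3-1 and mtr4-1 were 74.5% and 81.9%. Relative to the library median the latter was 100.5%, so only the values in mtr3-1 and dis3mtr, at 75.1% and 48.2%, were still low.

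Counted over the 6 genes, dis3mtr had 4 high (TUB1, TUB2, TUB3 and CIN1), as were 46.9% of all features, and 2 low (PAC2 and RBL2), as were 23.1%. The median of the 6 was 130.3% beside 112% for all features. In mtr3-1 only CIN1 was high, beside 27.7% of all features, and PAC2 and RBL2 were low, beside 33.1%. In mtr4-1 CIN1 alone was high, beside 14.6% of features, and TUB3, PAC2 and RBL2 were low, beside 57.7%. Each of these counts lay within 1.18 genes of the number that its background share of 6 genes gives, so the counts do not set the members apart from the other features.

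After division by the library median, dis3mtr had 3 of the 6 high and 2 low, where 36.2% and 31.5% of all features were. In mtr4-1 the counts became 3 high and 0 low, beside 33.1% and 33.8%. In mtr3-1 they stayed at 1 and 2, beside 27.7% and 32.3%.

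**Figure D3:**
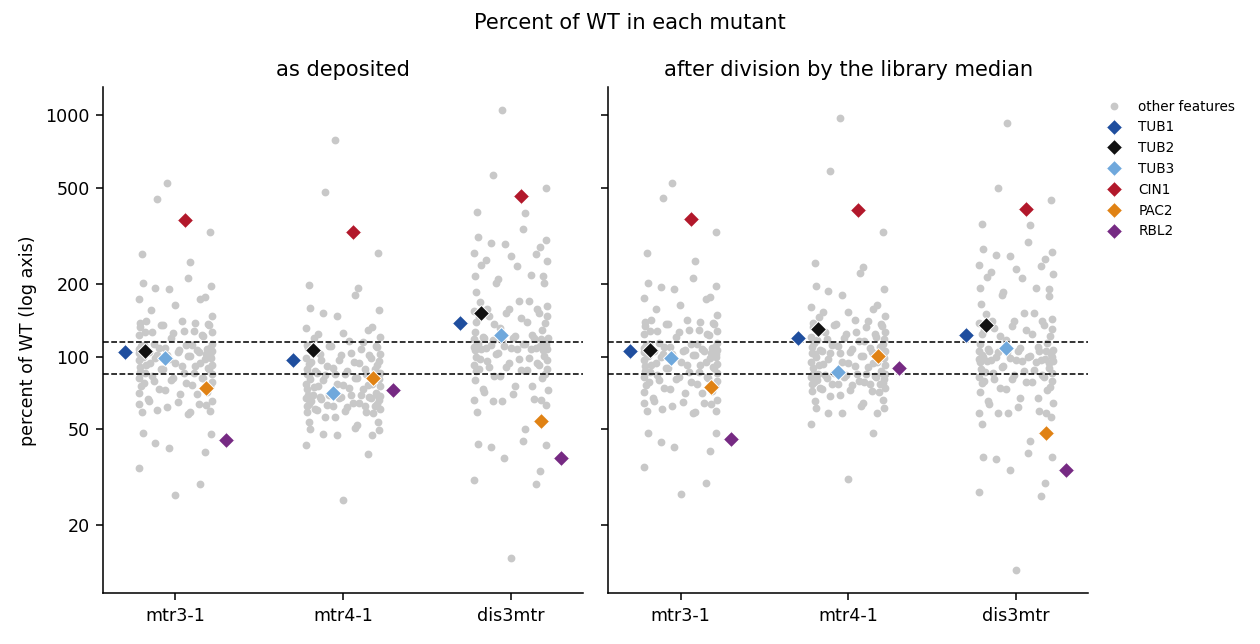
Percent of WT (log axis) of the 6 genes (diamonds) and of the other features in the tables (grey points) in each mutant, as deposited on the left and after division by the library median on the right; dashed lines mark the limits of low and high. CIN1 stands near the top of all features in every mutant, RBL2 near the bottom in mtr3-1 and dis3mtr, and the tubulin genes in dis3mtr lie in the upper part of the middle range.

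A ratio of 2 genes within a library does not depend on how that library was scaled, provided that 1 factor was applied to all of its genes. The sources used here do not state whether the authors' normalization was of that kind. The TUB2 to TUB1 ratio kept close to its WT value, at 1.00 times WT in mtr3-1, 1.09 in mtr4-1 and 1.10 in dis3mtr. Between the α-tubulin genes, whose coding lengths of 1338 and 1344 bp are nearly equal, TUB3 was at 1.08 times the value of TUB1 in WT, 1.01 in mtr3-1, 0.78 in mtr4-1 and 0.95 in dis3mtr. The deposited value of the minor gene was thus about that of the major one in 3 libraries and lower in mtr4-1. The scale of the values is undefined and both genes are listed over 5 kb. Whether values of different genes can be compared as transcript amounts was therefore not tested. Set against the sum of TUB1 and TUB3, TUB2 was at 1.04, 1.28 and 1.17 times its WT ratio in mtr3-1, mtr4-1 and dis3mtr.

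The ratios of the cofactor genes to the tubulin their products bind moved further. RBL2 relative to TUB2 was at 42.8% of the WT ratio in mtr3-1, 68.5% in mtr4-1 and 25.1% in dis3mtr. PAC2 relative to TUB1 was at 71.0%, 84.2% and 39.2% in the same order, and the mtr4-1 value was 98.2% when TUB1 and TUB3 were summed. CIN1 relative to TUB2 was at 3.50, 3.09 and 3.03 times the WT ratio, so this ratio was nearly the same in the 3 mutants. For RBL2 and PAC2, dis3mtr was the lowest library in both comparisons, with the numerator low and the tubulin high.

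**Figure D4:**
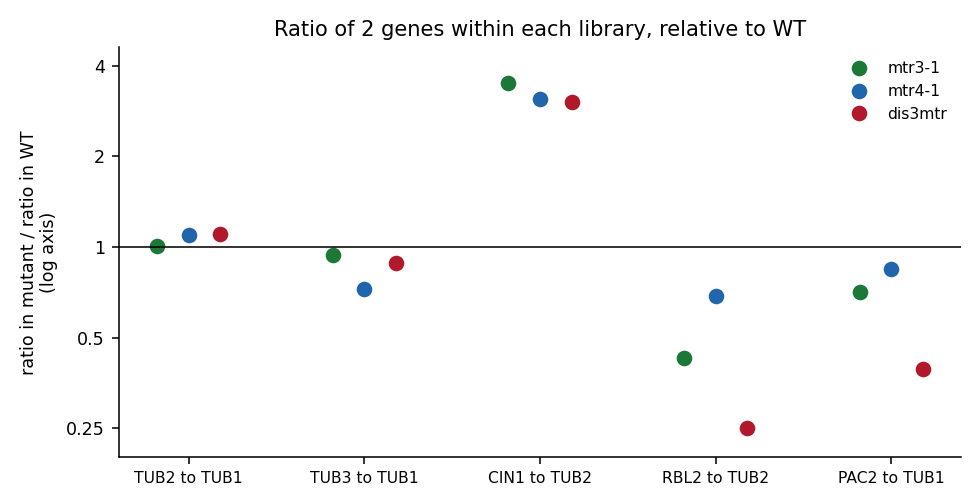
Ratio of 2 genes within each mutant library divided by the same ratio in WT (log axis, 1 point per library; the line at 1 marks WT). The tubulin pairs lie between 0.72 and 1.10, CIN1 to TUB2 between 3.03 and 3.50, and RBL2 to TUB2 reaches 0.25 in dis3mtr.

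Comparisons between mutants leave out the shared WT library. TUB2 in dis3mtr was 1.44 times its value in mtr3-1 and 1.43 times that in mtr4-1, where the median features were at 1.23 and 1.40. For TUB1 the corresponding ratios were 1.32 and 1.42. Against mtr4-1, TUB1 and TUB2 in dis3mtr thus lay close to the ratio of the median feature, and after median scaling they were at 1.03 and 1.04. CIN1 in dis3mtr, at 1.25 and 1.40 times mtr3-1 and mtr4-1, also lay close to the ratio of the median feature. TUB3 was 1.74 times as high in dis3mtr as in mtr4-1, or 1.26 times after median scaling.

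PAC2 and RBL2 went the other way from the median feature in dis3mtr. PAC2 in dis3mtr was at 0.73 times mtr3-1 and 0.66 times mtr4-1. RBL2 was at 0.85 and 0.52 times, the latter being the fourth lowest of the 130 ratios. Between the remaining mutants RBL2 in mtr4-1 was 1.62 times its value in mtr3-1, the sixth highest ratio, where the median feature was at 0.86. These differences could not be tested.

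On a list of 17 other genes of the folding pathway, 12 had values. CIN2, the partner of Cin1 known as cofactor C, is listed without values, and CIN4, ALF1, TCP1 and PFD1 are not analysed here. In dis3mtr 2 of the 12 were high and 6 low (median 87.7%), where 46.9% of all features were high and 23.1% low (median 112%). In mtr3-1 0 were high and 8 low (median 71.9%), beside 27.7% and 33.1% of all features (median 99.2%). In mtr4-1 0 were high and 10 low (median 66.7%), beside 14.6% and 57.7% (median 81.5%). Low values thus outnumbered high ones over all features too in mtr3-1 and mtr4-1. After median scaling 9, 8 and 7 of the 12 were low in dis3mtr, mtr3-1 and mtr4-1, beside 31.5%, 32.3% and 33.8% of all features.

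The chaperonin CCT, the ring complex in which tubulin and actin fold, was represented by 7 of its 8 subunit genes. In mtr4-1 all 7 measured were low, from 53.7% for CCT8 to 81.1% for CCT5, where 57.7% of all features were low. After median scaling 5 of them were low, beside 33.8% of all features. In dis3mtr CCT4 was at 137% and CCT6 at 121%, while CCT3, CCT7 and CCT8 were at 84.5%, 82.9% and 73.5%. After median scaling CCT6 was at 107% and 5 of the 7 were low, beside 31.5% of all features. The percents of the 7 measured subunit genes ranged from 73.5% to 137% in dis3mtr and from 64.6% to 107.6% in mtr3-1. These are RNA values of 1 library each, and the amounts of the subunit proteins were not measured. CCT8 was at 64.6% in mtr3-1 and was low in each mutant.

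The 5 measured prefoldin subunit genes had medians of 58.7%, 81.8% and 69.7% in mtr3-1, mtr4-1 and dis3mtr. None was high in any of them, beside 27.7%, 14.6% and 46.9% of all features. In the same order 5, 3 and 3 were low, beside 33.1%, 57.7% and 23.1%. After median scaling 5, 2 and 4 were low, beside 32.3%, 33.8% and 31.5%. The medians of all features were 99.2%, 81.5% and 112% in the same order. After median scaling the prefoldin median in mtr4-1 was 100.4%, so it lay at the median of all features there. Of 8 measured genes on a microtubule list, 6 were high in dis3mtr and 1 low (median 221%), beside 46.9% and 23.1% of all features. The 6 high genes had the smallest WT values of the 8, down to 8.73 units for ASE1. BIK1 and BIM1, at 47.7 and 81.8 units in WT, were inside the thresholds and low. With 1 WT library the error of the small WT values is unknown. In mtr3-1 4 of the 8 were high and 3 low, beside 27.7% and 33.1%. In mtr4-1 2 were high and 2 low (median 102%), beside 14.6% and 57.7%, and after median scaling 5 were high and 2 low (median 126%), beside 33.1% and 33.8%.

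**Figure D5:**
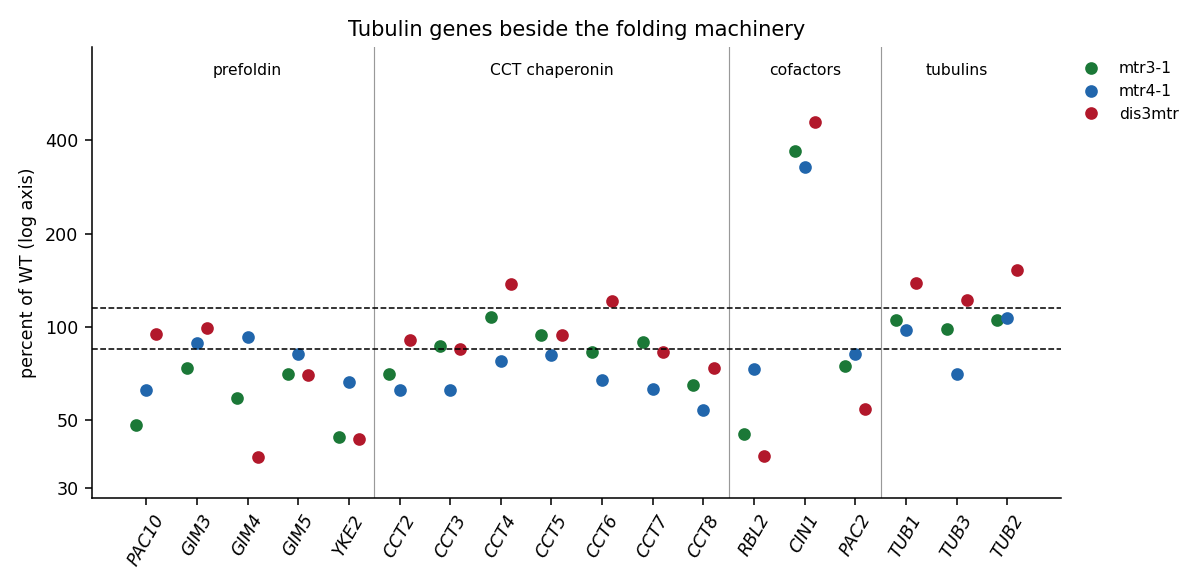
Percent of WT (log axis) of the measured prefoldin and CCT subunit genes, the cofactor genes and the tubulin genes, 1 point per mutant library; dashed lines mark the limits of low and high. CIN1 is the only gene above 300%, and the tubulin genes in dis3mtr lie above the upper line while most chaperone genes lie below 100%.

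Likeness was measured as the Euclidean distance over the 3 log2 ratios to WT among the 121 features of certain identity. These ratios share the WT library, so a low distance also reflects a similar error there. TUB1 was closest to TUB2 (distance 0.19), followed by ESP1 (0.20) and CLB4 (0.23). TUB2 was closest to RPN4 (0.10) and ESP1 (0.16), with TUB1 next at 0.19. TUB3 was closest to CDC42 (0.05), TGL3 and CLB3 (both 0.20), and TUB1 came only in place 35 from it, at 0.51.

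For the cofactor genes, RBL2 was closest to the prefoldin gene YKE2 (0.23), followed by GIM4 (0.52) and URM1 (0.53). Among the features close to PAC2 were RSC4 (0.36) and GIM5 (0.37). CIN1 had no near neighbour, with GIC1 at 0.59, BFA1 at 0.61 and HSL1 at 0.89. From RBL2, CIN1 lay in place 118, at a distance of 5.18.

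Gene length and level are given here beside the percents of the members. RBL2, at 321 bp, is the second shortest of the 121 genes and CIN1, at 3045 bp, stands in place 108 from the shortest. PAC2, at 1557 bp, stands in place 54. By WT value, counted from the lowest of the 130 features, CIN1 stands in place 12, PAC2 in place 46 and RBL2 in place 110. Across these genes Spearman's rho between gene span and percent of WT was 0.40 in mtr3-1, 0.16 in mtr4-1 and 0.34 in dis3mtr. The rho with mean level was -0.23, -0.34 and -0.29. These are descriptions across genes of 1 pair of libraries each, and the part of length or level in the RBL2, PAC2 and CIN1 values was not tested. The tubulin genes TUB2, TUB1 and TUB3 lie in places 44, 50 and 60 by length and in places 122, 107 and 109 by WT value. By length PAC2 lies between TUB1 and TUB3. In dis3mtr PAC2 was at 54.2% of WT, whereas TUB1 and TUB3 were at 138% and 122%.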

How the data were processed

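Poly(A)-selected RNA of 4 yeast cultures, 1 per genotype, was sequenced together in a lane for 36 cycles, per the labels' protocols. Bowtie was used with the genome build sacCer2, per the submitters' processing notes. Its version, the read assignment and the normalization are not stated in the sources used here. The deposited values are a normalized signal per gene and library, and, per the file headers, a ratio to WT times 100. The deposited ratios equalled those recomputed from the values, with a largest deviation of 1.14e-13.

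The 190 entries (175 with values) were reduced to 130 distinct sets of values, of which 121 had a name that matched the listed position in R64 within 1 kb, all 6 members among them. Ratios, library medians and a trimmed mean (30% trimmed at each end) of log2 ratios were computed with Python 3.11.15 and NumPy 2.4.6. The scaling code was checked on simulated data in which far fewer features changed than pass a threshold here. That check does not show that the scaling suits these data. SciPy 1.17.1 gave the rank correlations. Coding sequences were read from R64 through its own annotation and aligned with Biopython 1.88; file positions in sacCer2 were not converted.

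With 1 library per genotype no test was possible, so the thresholds of 115% and 85% from the file headers served as a description. Genes named beyond the 6 members came from lists of folding and microtubule genes, from the 3 closest features to each member, and from features that a position or level statement needed. A gene of the folding list is not reported here. The members and lists were chosen with earlier results of these data known.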

Additional observations from a re-analysis of the deposited data

Results flagged for a closer look

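TUB3 was at 122% of WT in dis3mtr and 70.4% in mtr4-1, on opposite sides of the authors' thresholds. The difference was not tested, and relative to the library medians the values were 109% and 86.5%, both inside the thresholds. CCT4 was at 137% in dis3mtr and 77.2% in mtr4-1, or 122% and 94.8% relative to the medians. CCT6 was at 121% in dis3mtr against 83.1% in mtr3-1 and 67.3% in mtr4-1, and relative to the medians at 107%, 83.8% and 82.6%. None of these differences was tested, since each mutant has 1 library.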

How the results depend on the processing

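Of 93 recomputed percents of single genes and ratios, 69 stayed on their side of the thresholds and 0 passed to the opposite threshold. Both scalings shift a percent of WT by a smaller factor than the one that separates the thresholds. Adding 1 unit to both values of a single gene only draws its percent toward equality with WT. For these settings the count of 0 was therefore fixed in advance and is no sign of robustness. No call in mtr3-1 changed with the scaling. In mtr4-1, median and trimmed-mean scaling gave 119% and 121% for TUB1, 131% and 133% for TUB2, 86.5% and 87.8% for TUB3, 100.5% and 102% for PAC2, and 89.5% and 90.9% for RBL2. The counts there were 3 high and 0 low under both. In dis3mtr, TUB3 was at 109% and 107%. Thresholds of 150% and 67% left 1 low gene in mtr3-1, 0 in mtr4-1 and 2 high genes in dis3mtr. The share of all features past these stricter thresholds was not computed, so these counts have no background beside them. With median scaling, dis3mtr as a percent of mtr3-1 was 109.9% for TUB3 and 110.05% for CIN1, and as a percent of mtr4-1 it was 103% for TUB1, 104% for TUB2 and 101% for CIN1. The same scaling put mtr4-1 as a percent of mtr3-1 at 123% for TUB2, 87.3% for TUB3 and 134% for PAC2. Since scaling multiplies a whole library, its own construction moves these values. Using the sum of TUB1 and TUB3, chosen after seeing the data, the TUB2 ratio was at 128% of WT in mtr4-1 and 117% in dis3mtr, and the PAC2 ratio in mtr4-1 at 98.2%. The ratio of PAC2 to TUB1 alone in mtr4-1 was at 85.1% of WT with 1 unit added. The shares of all features high or low stayed within 1.5 times when only features of certain identity, or of a mean level of 5 units or more, were counted. Median scaling took those in mtr4-1 from 14.6% to 33.1% high and from 57.7% to 33.8% low. No paired analysis was possible because each genotype has 1 library, and no library could be left out. Depth is unknown, so no counting error can be given for any value.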
